A study of Mus musculus with 25 samples.

Results

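The 6 transcription factor genes *Hnf4a*, *Hnf4g*, *Gata4*, *Gata6*, *Onecut1* and *Onecut2* were followed in mouse αTC1 and βTC6 cells, out of 24439 genes in the RNA-seq tables and 65053 peaks in the ATAC-seq table. Genes were taken by their symbol, and peaks by the name of the nearest gene in the deposited table, which assigned 27 peaks to these factors. Of these, 16 were named for *Hnf4g*, 6 for *Onecut2*, 4 for *Gata4* and 1 for *Gata6*, and the table named none for *Hnf4a* or *Onecut1*. αTC1 (alpha TC1 clone 6, a single clone) is a glucagon-producing line, and βTC6 (beta-TC-6) is an insulin-producing line. Both are commercial lines from mouse pancreatic islet tumours, kept in different media, and the labels give no treatment. ATAC-seq, in which a transposase cuts accessible DNA, was done on 5 libraries of each pure line and on 9 mixtures that held 10% to 90% αTC1 cells, 1 library per mixture. RNA-seq was done on 3 libraries of each pure line.

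HNF4A and HNF4G are nuclear receptors that bind DNA as dimers. *HNF4A* has a proximal promoter used mainly in liver and a distal promoter used in pancreatic islets, and its mutation in people causes a form of maturity-onset diabetes of the young. GATA4 and GATA6 are zinc finger factors that recognise the letters GATA and are needed for growth of the pancreas in the embryo. ONECUT1, also called HNF6, and ONECUT2 carry a cut domain and a homeodomain and act early in pancreas and liver development, where ONECUT1 lies upstream of endocrine commitment.

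Reads in peaks ranged from 6903416 to 8300868 in αTC1 libraries, from 4397851 to 10374903 in βTC6 libraries and from 5277983 to 7294832 in mixtures. RNA-seq libraries held 21795367 to 25876765 expected counts. ATAC-seq values are read counts scaled to a common effective library size (normalized reads), and RNA levels are FPKM, fragments scaled by transcript length and library size. Genes entered the test with at least 1 FPKM in all libraries of either line, and all peaks entered. A gene or peak was called when its Benjamini-Hochberg FDR was under 5% and its log2 fold change of βTC6 over αTC1 was over 2 or under -2. The sources used here do not say whether replicates were separate cultures, so p-values measure the spread between these libraries, which may be technical. α-cell marker genes summed to 12354 to 14703 FPKM in αTC1 and to 194.1 to 282.6 FPKM in βTC6, while β-cell marker genes summed to 13.6 to 14.9 and to 25372 to 37986 FPKM. Of the β-cell sum in αTC1, *Nkx6-1* alone gave 13.3 to 14.1 FPKM. βTC6 also held *Sst*, the δ-cell hormone gene, at 207.1 to 325.3 FPKM, against 0 FPKM in each αTC1 library. *Hhex*, the other δ-cell marker, went the other way, at most 0.02 FPKM in βTC6 and 0.06 to 0.13 in αTC1. *Ppy*, the hormone gene of PP cells, was at 3.70 to 50.8 FPKM in βTC6, against at most 0.10 in αTC1. Acinar markers summed to 3.61 to 3.75 FPKM in αTC1 and 0.49 to 1.31 in βTC6. Nearly all of the acinar sum in αTC1 came from *Cela1*, at 3.58 to 3.70 FPKM, while *Cela2a* was higher in βTC6. Mesenchyme markers summed to 2.47 to 3.50 and 0.34 to 0.54, and endothelium markers to at most 0.11 and 0.29. Duct markers summed to 8.15 to 14.35 FPKM in αTC1 and 6.96 to 13.3 in βTC6. Among them, *Spp1* was at 4.10 to 13.2 FPKM over all libraries, and *Sox9* at 4.05 to 4.42 in αTC1 and 0 in βTC6. The liver genes *Alb* and *Afp* together reached at most 2.46 FPKM in αTC1 and 0.610 FPKM in βTC6. The part of other cell types in the results was not tested.

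Sequences are shown for windows before a start of *Hnf4a*, *Hnf4g* and *Gata4* that lie in a peak, and for the *Gata4* peak with the widest difference, so that promoter and distal DNA can be read beside their values. They were read from build mm9, 5′ to 3′ on the strand of the gene. The *Hnf4a* window (chr2:163332294-163332543) is the DNA directly before the distal start, the *Hnf4g* window (chr3:3507780-3508029) and the *Gata4* window (chr14:63864109-63864358) are the DNA before their starts, and the last window (chr14:63874635-63874934) is the centre of an intronic *Gata4* peak. None of these windows overlapped an annotated exon. Capitals mark letters of the ONECUT motif ATTGATT, which reads as AATCAAT on the opposite strand, of the HNF4 motif CAAAGTCCA, which reads as TGGACTTTG there, and the longest run of letters that the *Hnf4a* and *Hnf4g* windows shared.
Hnf4a distal promoter: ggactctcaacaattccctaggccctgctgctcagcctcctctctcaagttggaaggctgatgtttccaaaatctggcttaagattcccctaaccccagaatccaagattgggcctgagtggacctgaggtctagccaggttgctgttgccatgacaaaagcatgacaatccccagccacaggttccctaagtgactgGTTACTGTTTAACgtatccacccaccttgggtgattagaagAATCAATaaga
Hnf4g promoter: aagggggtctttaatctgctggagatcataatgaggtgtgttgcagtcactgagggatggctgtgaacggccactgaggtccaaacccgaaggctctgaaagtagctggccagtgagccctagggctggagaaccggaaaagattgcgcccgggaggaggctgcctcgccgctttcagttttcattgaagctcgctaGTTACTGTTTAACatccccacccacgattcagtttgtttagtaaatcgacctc
Gata4 promoter: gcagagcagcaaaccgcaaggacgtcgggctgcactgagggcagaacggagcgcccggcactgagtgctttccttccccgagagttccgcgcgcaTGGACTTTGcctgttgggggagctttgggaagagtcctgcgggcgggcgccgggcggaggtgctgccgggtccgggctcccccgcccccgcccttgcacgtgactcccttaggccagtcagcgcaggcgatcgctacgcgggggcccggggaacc
Gata4 intronic peak: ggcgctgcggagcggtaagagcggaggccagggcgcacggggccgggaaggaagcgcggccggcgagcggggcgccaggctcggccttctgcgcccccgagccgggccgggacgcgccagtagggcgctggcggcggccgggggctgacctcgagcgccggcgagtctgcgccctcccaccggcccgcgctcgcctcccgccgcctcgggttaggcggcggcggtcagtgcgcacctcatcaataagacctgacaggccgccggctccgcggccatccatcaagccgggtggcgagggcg

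The shared run was 13 bases long and began 52 bases before the *Hnf4a* distal start and 53 bases before the *Hnf4g* start. On either strand it was present before 5 of 45982 annotated starts of protein coding transcripts (0.0109%), 3 of which are starts of *Hnf4a* or *Hnf4g*, the genes whose windows defined the run. A single stretch of DNA counts for both *Hnf4a* starts among them. The run was found by comparing these windows and not by searching for a known motif. The ONECUT letters of the *Hnf4a* window lie between this run and the start, and the same letters were in 2.18% of all windows of 250 bases before a start. The HNF4 letters of the *Gata4* window were in 0.381% of such windows. The motif of the GATA family, searched as AGATAAG on both strands, was in none of the 4 sequences. A match describes letters only and does not show binding.

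*Hnf4a* RNA was present in βTC6 and close to absent in αTC1. Its level was 15.6, 12.0 and 8.17 FPKM in the βTC6 libraries and 0, 0 and 0.010 FPKM in the αTC1 libraries. All βTC6 libraries were high and the lines did not overlap. The counts were 1193, 961 and 608 in βTC6 and 0, 0 and 1 in αTC1, a ratio of 2686 after scaling for library size (exact 95% interval of the counting error, 482 to 106129). The fitted log2 fold change of βTC6 over αTC1 was 10.93 (SE 0.50, edgeR FDR = 1.51e-07), a value that depends on how a count near 0 is handled. In these bulk libraries, fewer cells with a transcript and less transcript per cell cannot be told apart.

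The chromatin at *Hnf4a* (chr2:163332544-163398646) held a single consensus peak, at its distal start. The peak (chr2:163332247-163332988) spans 2 annotated starts of the distal promoter, and the deposited table names it for the neighbouring gene *R3hdml*, so it lies outside the rule by which peaks were assigned. *R3hdml* RNA was at 0.063 ± 0.057 FPKM in αTC1 and 0.060 ± 0.072 FPKM in βTC6 (SD, n = 3). Normalized read counts in that peak were 0.840, 1.12, 1.65, 2.05 and 0.722 in αTC1 and 17.8, 18.3, 20.0, 20.5 and 16.2 in βTC6. The distal promoter was therefore low in each αTC1 library and higher in each βTC6 library, with a log2 fold change of 3.13 (SE 0.21, limma FDR = 4.70e-11). With a pseudocount of 5 in place of 1, the fold change was 1.91 and no longer passed the threshold of 2. No consensus peak overlapped the starts farther downstream, which include the proximal promoter at 163372923.

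*Hnf4g* showed the same order of the lines at a lower level. It had 1.55, 1.32 and 0.970 FPKM in βTC6 and 0 FPKM in every αTC1 library, from 136, 104 and 69 counts against 0, 0 and 0. The βTC6 level was at least 33.1-fold higher, taking 3 counts in each αTC1 library as the floor. *Hnf4g* was not among the genes tested, since 1 βTC6 library fell under 1 FPKM. Without the filter it was called, with an edgeR FDR of 7.50e-07. Within the HNF4 family, *Hnf4a* made up 90.2% ± 0.800 of the FPKM in βTC6 (SD, n = 3).

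The promoter peak of *Hnf4g* (chr3:3507466-3508696) was open in both lines. It had 15.8, 15.3, 14.6, 17.3 and 13.1 normalized reads in αTC1 and 49.1, 50.5, 55.9, 49.8 and 63.8 in βTC6. The groups did not overlap and the log2 fold change was 1.75 (SE 0.11, limma FDR = 1.38e-11), under the threshold of 2 on the fold change. The αTC1 signal at this promoter comes from ATAC-seq libraries and the 0 counts of *Hnf4g* from separate RNA-seq libraries of the line. None of the other 15 *Hnf4g* peaks was called either. Of these, 13 lay 158.7 to 507.5 kb before the gene, at the beginning of the assembled chromosome, with log2 fold changes between -1.21 and 1.04 and a median of -0.36. By FDR alone, 4 of the 13 were more open in αTC1 and 1 in βTC6, where 38.1% and 39.9% of all peaks were. The peak at -1.21, 158.7 kb before the gene, was at -1.71 within replicates 1 to 3 and at -0.45 within replicates 4 and 5, and it rose with the percentage of αTC1 cells in the mixtures (limma FDR = 0.0334), and the peak at 1.04, 167.2 kb before it, fell (limma FDR = 0.000794). The peaks were assigned to *Hnf4g* by the name of the nearest gene alone.

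**Figure D1:**
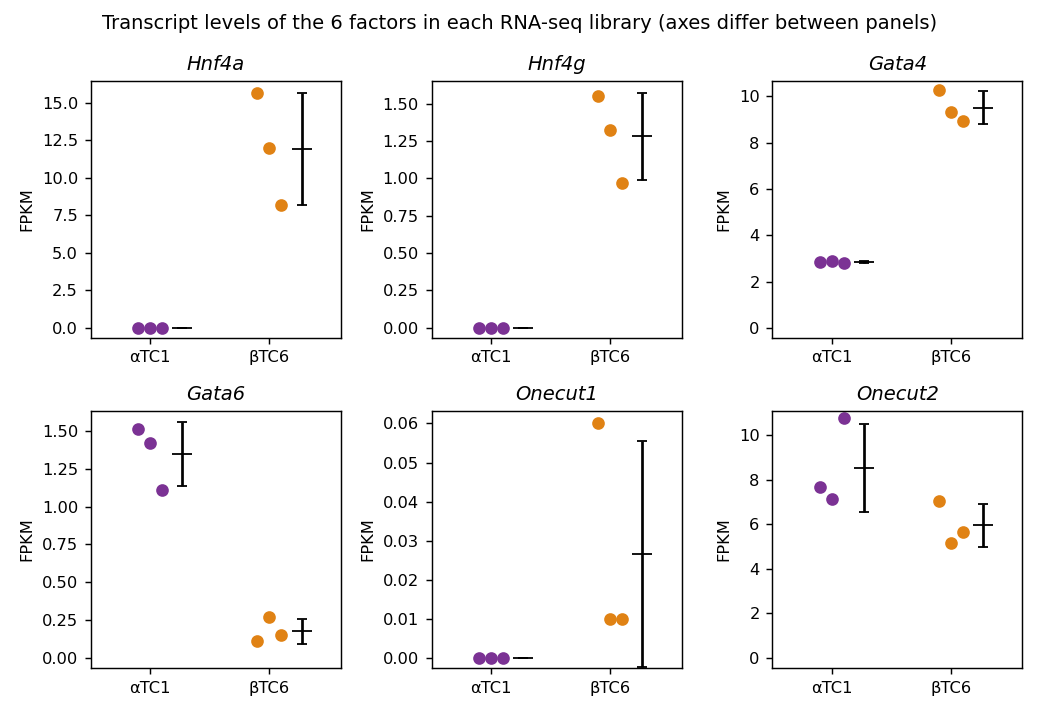
FPKM of each of the 6 factors (vertical axes, which differ between panels) in the 3 αTC1 and the 3 βTC6 RNA-seq libraries, with one point per library and black bars for the mean ± SD. *Hnf4a*, *Hnf4g* and *Gata4* were higher in every βTC6 library, *Gata6* was higher in every αTC1 library, and *Onecut1* stayed at or below 0.060 FPKM.

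*Gata4* was expressed in both lines and was higher in βTC6. It had 2.84, 2.90 and 2.81 FPKM in αTC1 and 10.3, 9.33 and 8.93 FPKM in βTC6, with no overlap. The log2 fold change was 1.79 (SE 0.11, edgeR FDR = 6.30e-07), under the threshold of 2. *Gata4* lies on chromosome 14 (chr14:63817759-63890529), where the median log2 fold change over 415 tested genes was 1.20, against 0.01 over all genes. Relative to that median, *Gata4* was 0.59 higher in βTC6, and 73.3% of the tested genes of the chromosome had a smaller fold change. The part of this shift of a whole chromosome in the *Gata4* result was not tested.

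All 4 *Gata4* peaks were more accessible in βTC6, and 3 of them were called. At the intronic peak (chr14:63874356-63875214), 10.7 kb before the main start, αTC1 had 1.54, 1.55, 1.35, 0.955 and 1.16 normalized reads and βTC6 had 21.7, 26.7, 27.8, 22.1 and 23.4. This was the widest gap among the *Gata4* peaks, with a log2 fold change of 3.46 (SE 0.18, limma FDR = 1.47e-12). The upstream peaks, 42.3 and 58.2 kb before the outermost annotated start, had log2 fold changes of 2.27 (SE 0.20) and 2.07 (SE 0.25). With quantile normalization they were 1.89 and 1.74, and with a pseudocount of 5 they were 1.34 and 0.84, so neither was then called. At the second of these, 4 of the 5 αTC1 libraries stood at 1 read, the lowest value in the table, and within replicates 1 to 3 the log2 fold change was 1.97, under the threshold. It was also under 2 without βTC6 replicate 2 (1.94), 3 (1.99) or 5 (1.90). The promoter peak (chr14:63863539-63864647) had 10.2 ± 0.824 normalized reads in αTC1 and 23.2 ± 4.34 in βTC6 (SD, n = 5), a log2 fold change of 1.10 (SE 0.14, limma FDR = 4.91e-07).

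The median log2 fold change over the 2830 peaks of chromosome 14 was 1.54, and 35.5% of them were called more open in βTC6. After subtraction of this median the intronic peak was still 1.92 higher in βTC6 (SE 0.20, limma FDR = 3.66e-08) but under the threshold of 2, whereas the promoter peak turned to -0.44 (SE 0.17, limma FDR = 0.0249). The peaks at 42.3 and 58.2 kb came to 0.73 and 0.53 and were no longer past the threshold. The promoter thus lay under the median of its chromosome and the other *Gata4* peaks above it.

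*Gata6* ran in the opposite direction to *Gata4*. It had 1.51, 1.42 and 1.11 FPKM in αTC1 and 0.110, 0.270 and 0.150 FPKM in βTC6. The lines did not overlap, and the log2 fold change was -2.84 (SE 0.33, edgeR FDR = 4.35e-05). On the log2(FPKM + 1) scale the change was -0.99 (limma FDR = 4.53e-05), under the threshold of 2. A lincRNA gene, 1010001N08Rik, overlaps the *Gata6* start on the other strand and reached at most 0.260 FPKM in αTC1 and 0 FPKM in βTC6. The library kit was stranded, but the study's methods give default settings for RSEM, which do not use the strand, so reads of the pair could not be told apart where the genes overlap.

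The deposited table names the peak at the *Gata6* start (chr18:11052316-11053468) for that lincRNA. Both lines were open there, αTC1 at 26.7 ± 2.78 and βTC6 at 15.0 ± 3.24 normalized reads (SD, n = 5), which gave a log2 fold change of -0.81 (SE 0.13, limma FDR = 1.28e-05). The peak that the table does name for *Gata6*, 75.7 kb before it, had 6.97 ± 2.96 and 4.69 ± 1.80 normalized reads, and its log2 fold change of -0.46 (SE 0.25, limma FDR = 0.0946) did not pass an FDR of 5%. It did pass with the replicate number as a block (limma FDR = 0.0479), with quantile normalization (-0.87, limma FDR = 0.00434) and without βTC6 replicate 5 (-0.64, limma FDR = 0.0207), and without αTC1 replicate 5 it was -0.27.

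The 2 lines differed in which GATA gene led. *Gata2*, a relative known from blood and neural progenitors, made up 68.1% ± 1.46 of the summed GATA FPKM in αTC1 (SD, n = 3), followed by *Gata4* at 20.2% ± 1.87 and *Gata6* at 9.48% ± 0.795. In βTC6, *Gata4* made up 96.9% ± 0.516 and *Gata2* 0.926% ± 0.516. The summed level was 12.6 to 15.4 FPKM in αTC1 and 9.20 to 10.6 FPKM in βTC6. *Gata2* itself had 9.65 ± 1.18 FPKM in αTC1 and 0.093 ± 0.059 FPKM in βTC6, a log2 fold change of -6.62 (SE 0.27, edgeR FDR = 7.52e-08). It passed the filter only through αTC1, the line in which it was high.

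*Onecut2* was the ONECUT gene of both lines. It had 7.68, 7.13 and 10.8 FPKM in αTC1 and 7.04, 5.17 and 5.66 FPKM in βTC6. The groups came close without overlapping, and the log2 fold change of -0.33 (SE 0.11, edgeR FDR = 0.0249) was far under the threshold of 2. With size factors from the ERCC spike-in RNAs, the edgeR FDR was 0.605. Without αTC1 replicate 3 the change was -0.21 (edgeR FDR = 0.0763), and without βTC6 replicate 2 or 3 the edgeR FDR was 0.0716 or 0.0617. Relative to the median of the tested genes of its chromosome, *Onecut2* was at -0.082. *Onecut1* had 0 counts in each αTC1 library and 4, 1 and 1 counts in βTC6, which is at the limit of detection, and no fold change is given. *Onecut1* had no peak over its gene body (chr9:74709728-74737591).

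The peaks of *Onecut2* (chr18:64500002-64560641) changed in both directions although its RNA differed little. At an intronic peak (chr18:64540556-64541575), 41.0 kb into the gene, αTC1 had 39.5, 38.9, 40.1, 37.7 and 49.5 normalized reads and βTC6 had 1.28, 3.90, 3.38, 2.14 and 2.72. Each αTC1 library was high, and the log2 fold change was -3.56 (SE 0.18, limma FDR = 1.47e-12). At a peak 2.48 kb after the start (chr18:64502238-64502796), αTC1 had 2.80, 2.11, 2.71, 2.32 and 2.02 normalized reads and βTC6 had 18.7, 11.3, 16.9, 15.7 and 18.7. Here every βTC6 library was the higher one, with a log2 fold change of 2.33 (SE 0.19, limma FDR = 9.12e-10), which became 1.51, and not called, with a pseudocount of 5.

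The other 4 *Onecut2* peaks were more open in αTC1 without passing the threshold on the fold change. They included the promoter, at 50.5 ± 3.58 and 28.1 ± 3.15 normalized reads (SD, n = 5), and the highest of all 27 peaks, 10.4 kb into the gene, at 89.4 ± 5.03 and 42.9 ± 5.40. Their log2 fold changes were -0.83 (SE 0.10) and -1.05 (SE 0.09). The remaining pair, 42.3 and 54.4 kb into the gene, had -1.33 (SE 0.28) and -1.60 (SE 0.19).

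**Figure D2:**
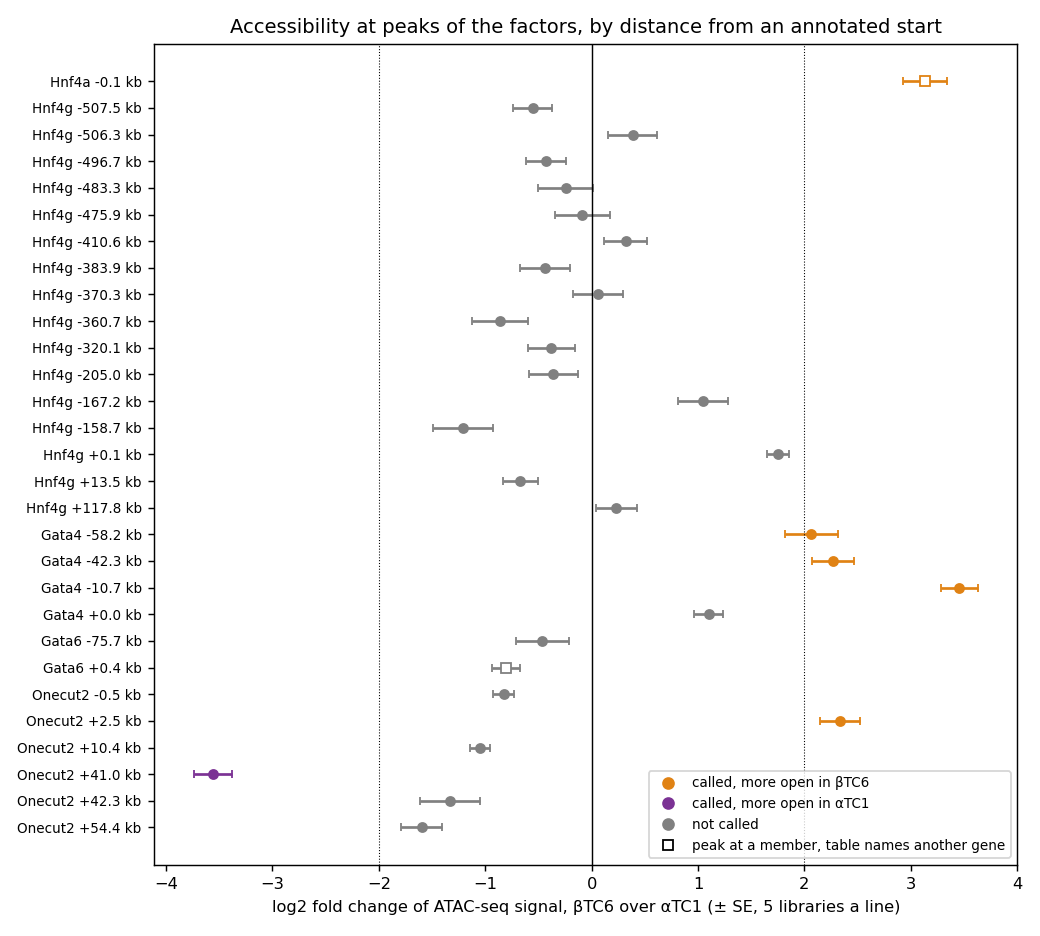
Log2 fold change of ATAC-seq signal (βTC6 over αTC1, horizontal axis, ± SE, 5 libraries of each line) for the 27 peaks of the factors and 2 peaks at their starts that the table names for other genes (open squares), ordered by distance from an annotated start. Dotted lines mark log2 fold changes of -2 and 2. *Gata4* peaks all lie to the right of 0, the distant *Hnf4g* peaks scatter around 0, and *Onecut2* peaks lie on both sides.

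Of the 6 factors, 4 passed the FPKM filter, 1 was called higher in βTC6 (*Hnf4a*) and 1 higher in αTC1 (*Gata6*), where 10.2% and 4.08% of the 12195 tested genes were called in these directions. Both called factors passed the filter only through the line in which they were high, so no weight rests on that count. Of the 27 peaks, 4 (14.8%) were called more open in βTC6 and 1 (3.70%) more open in αTC1, against 12.9% and 5.38% of all 65053 peaks. At an FDR under 5% alone, 7 leaned to βTC6 and 10 to αTC1, where all peaks gave 39.9% and 38.1%. In 11 of the 27 peaks (40.7%) the values of the lines did not overlap, compared with 63.9% of all peaks. The difference between these shares was not tested. The median log2 fold change of the 27 peaks was -0.36, beside 0.00 for all peaks. Among peaks with a mean of at least 5 normalized reads the order turned, at -0.089 beside -0.19.

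The order of levels differed between the lines. In βTC6 it was *Hnf4a* (11.9 ± 3.74 FPKM), *Gata4* (9.52 ± 0.699), *Onecut2* (5.96 ± 0.970), *Hnf4g* (1.28 ± 0.292), *Gata6* (0.177 ± 0.083) and *Onecut1* (0.027 ± 0.029), each as mean ± SD with n = 3. *Hnf4a* and *Gata4* overlapped between libraries, and the other neighbours did not. In αTC1 it was *Onecut2* (8.53 ± 1.97 FPKM), *Gata4* (2.85 ± 0.046) and *Gata6* (1.35 ± 0.210), with no overlap, and the other 3 factors were at 0.010 FPKM or below.

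The mixtures showed how these peaks followed the share of each line. Over the 9 mixtures, 7 of the 27 peaks (25.9%) rose with the percentage of αTC1 cells and 7 (25.9%) fell (limma, FDR under 5%), against 24.8% and 33.5% of all peaks. The *Hnf4a* distal promoter, outside the assigned peaks, had 14.8 normalized reads at 10% αTC1 cells, 9.94 at 50% and 1.83 at 90%. Its Pearson r with the percentage was -0.97 (exact permutation p = 2.20e-05, adjusted p = 0.000121), Spearman's rho was -0.97 (adjusted exact p = 0.000455), and r was -0.94 without the mixtures at 10% and 90%. The *Hnf4g* promoter went from 52.2 at 10% to 35.2 at 50% and 13.4 at 90%, with r = -0.98 (adjusted exact p = 0.000121), rho = -0.97 and r = -0.97 without the outer mixtures. These p-values were two-sided and adjusted over the 11 peaks described here.

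The *Gata4* intronic peak fell from 19.2 through 11.5 to 3.86 normalized reads at 10%, 50% and 90% αTC1 cells (r = -0.94, adjusted exact p = 0.000626, rho = -0.92). The *Gata4* peak 42.3 kb before the outermost start had r = -0.96 and rho = -0.95, and its promoter had r = -0.86 and rho = -0.87 (adjusted exact p = 0.00440 for r), which became r = -0.72 without the outer mixtures (limma FDR = 0.127 for its slope). The direction was the one seen between the pure lines in each case. The mixtures held cells of these same lines, and some peaks were described because they were called between the lines. A shared direction thus follows from the design and is no separate support.

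*Onecut2* peaks followed the mixtures in both directions within 1 gene. The peak at 41.0 kb rose from 9.55 through 23.8 to 33.5 normalized reads at 10%, 50% and 90% αTC1 cells (r = 0.95, adjusted exact p = 0.000509, rho = 0.97), while the peak at 2.48 kb fell from 10.9 through 7.74 to 1.02 (r = -0.94, adjusted exact p = 0.000212, rho = -0.97). Its promoter had r = 0.84 and rho = 0.83, and the peak at 10.4 kb had r = 0.86 and rho = 0.92, which was r = 0.67 without the outer mixtures (limma FDR = 0.153 for its slope). The peak at 54.4 kb, at -1.60 between the pure lines, had no slope that passed (limma FDR = 0.690). Neither *Gata6* peak showed a relation that passed: r was 0.48 (adjusted exact p = 0.211, rho = 0.47) at its start and 0.17 (adjusted exact p = 0.647, rho = 0.23) at the upstream peak. With replicates 4 and 5 of the pure lines added, the slope at the *Gata6* start passed (limma FDR = 0.0108).

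**Figure D3:**
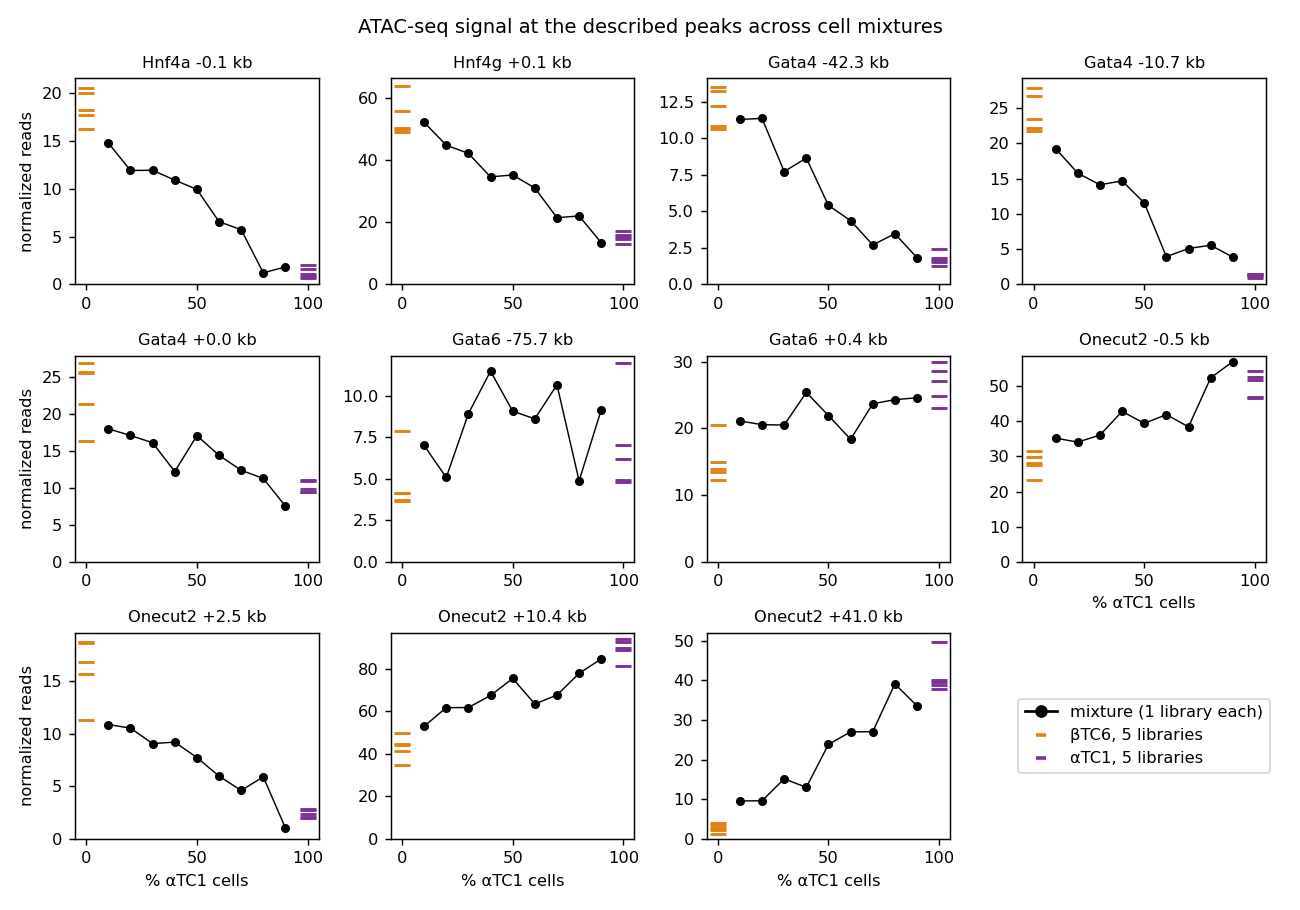
Normalized ATAC-seq reads (vertical axes) against the percentage of αTC1 cells for 11 peaks, with black points for the 9 mixtures and short bars for the 5 βTC6 libraries (0%) and the 5 αTC1 libraries (100%). Distances are from the nearest annotated start. *Hnf4a*, *Hnf4g* and *Gata4* peaks fall from left to right, *Onecut2* peaks go both ways, and the *Gata6* peaks show no relation that passed the test.

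Partners of these factors were read from a list of 9 cofactor genes, all of which were tested. *Ppargc1a*, a coactivator of HNF4A, was 96.2 ± 9.54 FPKM in αTC1 and 3.10 ± 0.928 in βTC6 (SD, n = 3), a log2 fold change of -4.30 (SE 0.21, edgeR FDR = 2.04e-07). *Zfpm2*, which encodes the GATA partner FOG2, was 1.80 ± 0.261 and 0.037 ± 0.012 FPKM (log2 fold change -5.70, SE 0.28, edgeR FDR = 2.24e-07). *Nr0b2*, which encodes the corepressor SHP, was 0.050 ± 0.017 and 2.11 ± 0.382 FPKM (log2 fold change 5.32, SE 0.39, edgeR FDR = 2.47e-06). Its αTC1 counts were 1, 1 and 2, so the size of this change depends on how counts near 0 are handled. These were the cofactors called, 2 higher in αTC1 and 1 higher in βTC6, where 4.08% and 10.2% of all tested genes were called in these directions. *Zfpm2* and *Nr0b2* passed the filter only through the line in which they were high. The median of all 9 was -0.39 beside 0.01 for all tested genes. By FDR alone, *Zfpm1*, *Ncoa2* and *Ncoa3* were lower in βTC6, with log2 fold changes of -1.30 (SE 0.36), -1.31 (SE 0.10) and -0.39 (SE 0.10), and *Crebbp* was higher, with 0.43 (SE 0.11). With ERCC size factors *Ncoa3* and *Crebbp* no longer passed (edgeR FDR = 0.516 and 0.496). Relative to the median of the tested genes of its chromosome, *Ncoa2* was at -0.64, *Ncoa3* at -0.17 and *Crebbp* at 0.68. *Ep300* was at -0.22 (SE 0.10, edgeR FDR = 0.0637), and *Ncoa1* was at -0.013 (SE 0.078). *Ep300* did pass an FDR of 5% with library size only (edgeR FDR = 0.0335) and without the FPKM filter (edgeR FDR = 0.0283). Without βTC6 replicate 1 it was -0.33 (edgeR FDR = 0.00857), and with ERCC size factors the edgeR FDR was 0.761.

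Among 9 genes known as targets of HNF4 in liver, gut or islets, 3 passed the filter, and those 3 were called higher in βTC6, as were 10.2% of all tested genes. *Slc2a2*, the glucose transporter GLUT2, was 4.76 ± 0.703 FPKM in βTC6 and 0.037 ± 0.032 in αTC1 (SD, n = 3), with a log2 fold change of 7.29 (SE 0.41, edgeR FDR = 4.49e-07). *Pklr*, liver pyruvate kinase, had a log2 fold change of 6.28 (SE 0.42), and *Apoa2*, an apolipoprotein of high-density lipoprotein, 2.11 (SE 0.23). *Slc2a2* and *Pklr* passed the filter only through βTC6, and their αTC1 counts were at most 3 in a library. Without αTC1 replicate 3, *Apoa2* was 1.89 and not called. The other 6 were under 1 FPKM in at least 1 library of both lines, and *Fabp1* and *Apoa4* had 0 counts in all 6 libraries. Without the filter, *Pck1*, which encodes the cytosolic enzyme of gluconeogenesis PEPCK, was called in the other direction, with a log2 fold change of -3.56 (SE 1.08, edgeR FDR = 0.0129) from 15 counts in αTC1 and 1 in βTC6. The median of the 3 tested was 6.28, a value that the filter bears on, beside 0.01 for all tested genes. On the log2(FPKM + 1) scale with limma, *Pklr* (1.78) and *Apoa2* (1.83) of this list and *Zfpm2* (-1.43) and *Nr0b2* (1.56) of the cofactors were not called. Of 5 related factors, *Gata2* alone was tested, and *Gata5* had 0 counts throughout.

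**Figure D4:**
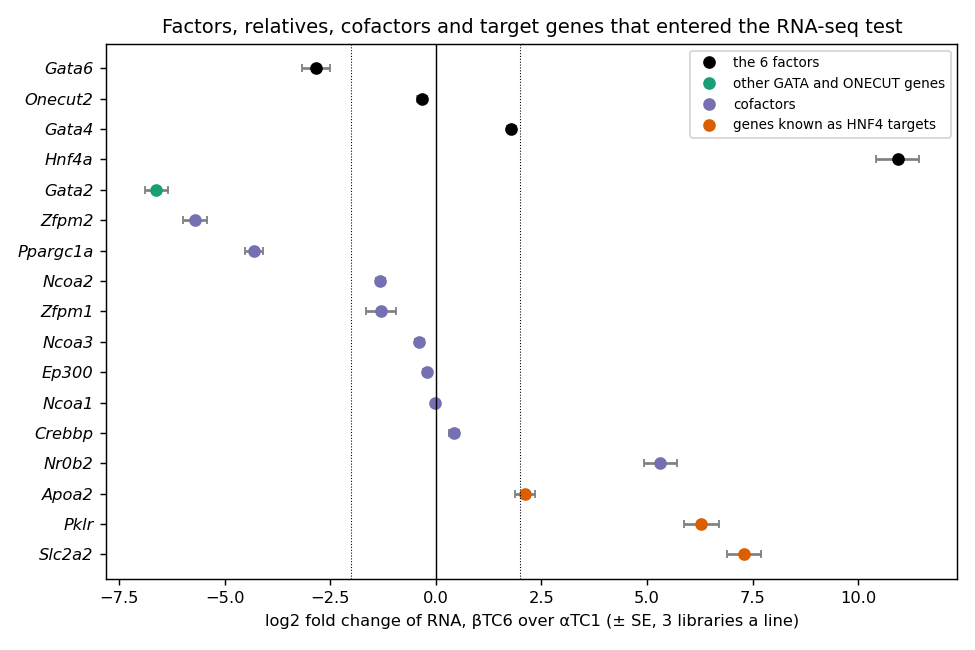
Log2 fold change of RNA (βTC6 over αTC1, horizontal axis, ± SE, 3 libraries of each line) for the tested factors, related factors, cofactors and HNF4 target genes. Dotted lines mark log2 fold changes of -2 and 2. *Hnf4a*, *Nr0b2* and the 3 tested target genes lie to the right of 2, and *Gata6*, *Gata2*, *Zfpm2* and *Ppargc1a* to the left of -2.

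The genes with levels most like those of each tested factor were found as the smallest Euclidean distance of log2(FPKM + 1) over the 6 RNA-seq libraries. For *Hnf4a* they were *Epcam* (0.28), *Tgfb1* (0.31) and *Grb7* (0.34), for *Gata4* *Ngly1* (0.28), *Negr1* (0.29) and *St5* (0.30), for *Gata6* *Gm13157* (0.15), *Gas1* (0.21) and *Epas1* (0.22), and for *Onecut2* *Ahdc1* (0.27), BC032203 (0.31) and *Ldlrad3* (0.31).

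Letters of the 3 motifs were counted on both strands in a window of 300 bases around the centre of each peak. Peaks narrower than 300 bases lie within their window, which reaches past them. The ONECUT letters were in 8.03% of the 8409 peaks called more open in βTC6, 2.43% of the 3502 called more open in αTC1 and 3.69% of the 53142 others. The HNF4 letters were in 1.18%, 0.257% and 0.474%, and the GATA letters in 4.78%, 4.91% and 3.72%. Mean GC content also differed between these sets, at 45.6%, 48.6% and 51.1%, and its part in the shares was not tested. Of the windows of the 27 peaks, 1 held the GATA letters and none the HNF4 or ONECUT letters. All peaks gave 3.92%, 0.553% and 4.18%. The 1 with GATA letters was that of an *Onecut2* peak 229 bases wide, so the letters may lie outside the peak. The HNF4 letters shown before the *Gata4* start lie in its promoter peak but outside the central window. Outside the 27, the window of the *Hnf4a* start peak held the ONECUT letters and that of the *Gata6* start peak the GATA letters.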

How the data were processed

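ATAC-seq signal was deposited by the authors as TMM-normalized read counts per consensus peak: reads were trimmed (Trimmomatic 0.32), aligned to mm9 (BWA 0.7.9a), cleared of duplicates (Picard 1.95), called per library (MACS2 2.1.0) and joined (DiffBind 2.2.5). Per the submitters' processing notes and the study's methods, RNA-seq expected counts and FPKM values were computed by the authors with Trim Galore, Bowtie2 and RSEM 1.2.12. ATAC-seq values were whole multiples of 1 read (tolerance 0.01), and a peak at 1 read cannot be told from one with none. Deposited columns with the authors' own peak classes (differential and signature peaks) were not used.

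Expected counts were rounded and tested with edgeR 4.0.16 (TMM, quasi-likelihood) among genes with at least 1 FPKM in all replicates of either line, leaving out 92 ERCC entries. ATAC-seq peaks were tested with limma 3.58.1 (trend) on log2(value + 1), with 1 as pseudocount, so fold changes of low peaks are understated, and mixtures with limma on the percentage of αTC1 cells. A call needed a Benjamini-Hochberg FDR under 5% and, between the lines, an absolute log2 fold change over 2. All fold changes are βTC6 over αTC1. The SE of a gene is its absolute log2 fold change over the square root of F. Counting intervals and the floor of 3 counts cover counting error only. The study also removed unwanted variation with RUVSeq on ERCC RNAs, and here ERCC size factors stood in as an alternative. Scripts were tested on simulated data. R 4.3.3 and Python 3.11.15 (scipy 1.17.1) were used.

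The factors, lists and tests were chosen with earlier results of these data known, and 1 gene of the target list is not reported here. Every factor was named, genes of a list where they passed, and per factor the peak nearest to a start, the highest peak and up to 2 called peaks in each direction. *Hnf4a* and *Gata6* start peaks, other *Onecut2* and *Gata4* peaks, the *Hnf4g* peaks at 158.7 and 167.2 kb, cofactors that were not called, *Pck1* and genes at 0 were added after their values were seen. Peaks at 1 gene share their locus and are not replicates. Gene positions are from GENCODE vM1 on the same build. Alternatives covered normalization, pseudocount, filters, tests, a split of ATAC-seq replicates 1 to 3 against 4 and 5 (not named in the labels), replicate block, chromosome median and leaving out each library.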

Additional observations from a re-analysis of the deposited data

Results flagged for a closer look

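In 7 of 58 groups of 5 ATAC-seq libraries at these peaks, 1 library stood apart from the other 4 by Dixon's test. A rate of 1 in 20 would give 2.9 for independent groups of normal values. Peaks of few reads and values tied at 1 read do not meet this, so 7 is no measure of an excess. βTC6 replicate 1 had 6.96 normalized reads at the *Hnf4g* peak 410.6 kb before the gene (median of the 5 libraries 5.42). αTC1 replicate 4 had 2.59 at the one 205.0 kb before it (median 5.88), and αTC1 replicate 1 had 7.56 at the one 158.7 kb before it (median 3.28). βTC6 replicate 3 had 0.811 at the intronic *Hnf4g* peak (median 0.143). αTC1 replicate 2 had 0.702 at the *Gata4* peak 58.2 kb before the outermost start (median 0.144). βTC6 replicate 5 had 7.89 at the upstream *Gata6* peak (median 4.10), and αTC1 replicate 5 had 49.5 at the *Onecut2* peak at 41.0 kb (median 39.5).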

How the results depend on the processing

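Without the FPKM filter, 2 factors were called higher in βTC6 instead of 1, since *Hnf4g* then entered. Leaving out 1 RNA-seq library at a time gave 1 to 2, with 2 when βTC6 replicate 3, the library with *Hnf4g* under 1 FPKM, was left out. With an FPKM minimum of 2, and with limma on log2(FPKM + 1), 0 factors were called higher in αTC1, and *Gata6* did not enter the first of these tests. Both settings left 1 cofactor called in αTC1 and 0 in βTC6, and left 2 and 1 of the 3 targets. Without the filter, related factors went from 1 called in αTC1 and 0 in βTC6 to 2 and 1 (*Gata3* and *Onecut3* added). Called peaks more open in βTC6 fell from 4 to 1 with a pseudocount of 5, to 2 with quantile normalization and to 1 after subtraction of the chromosome median. This count was 3 with a mean of at least 5, with replicates 1 to 3 only and without βTC6 replicate 2, 3 or 5, and 3 to 4 over all libraries left out. Peaks called more open in αTC1 rose from 1 to 2 with edgeR on recovered reads. Over peaks at the gene bodies, an alternative chosen after seeing the data, the median log2 fold change was -0.74 instead of -0.36. This median was -0.089 with a mean of at least 5, where that of all peaks was lower, at -0.19. It was -0.10 with replicates 4 and 5 only, -0.19 with a pseudocount of 5 and -0.54 with quantile normalization. All peaks were then at -0.0033, 0.00036 and -0.070. Quantile normalization moved the share of βTC6 calls among all called peaks from 70.6% to 52.5%, and all calls ranged from 2487 with a pseudocount of 5 to 19533 with edgeR on recovered reads, against 11911. The direction reversed for *Ncoa1* without βTC6 replicate 2 (0.032, in a range of -0.075 to 0.032 over the libraries left out), for the *Gata4* promoter peak after subtraction of the chromosome median (-0.44) and for the slope of the upstream *Gata6* peak without the mixtures at 10% and 90% (-0.000214 per percentage point), and the cause was not tested. Same-numbered libraries of the lines correlated between -0.036 and 0.069 in their deviations from the group means. ATAC-seq replicates 3 to 5 correlated best with their own number, and the other libraries did not. Values this near 0 cannot settle whether the numbers pair the libraries. With the replicate number as a block, 1 factor was called in each direction and 4 and 1 peaks were called, and no call changed, while the FDR of the upstream *Gata6* peak went from 0.0946 to 0.0479. For the genes tested and the called or described peaks, a call was lost in 21 pairs of a result and an alternative, and the slope at the *Gata6* start gained one, beside the changes in counts above. Levels under 3 counts, and peaks at 1 read, limit what could be seen.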
